A study of Mus musculus with 2 samples.

Results

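The sarcomere is the contractile unit of the heart muscle cell, and 35 genes of its thick, thin and titin filaments, its M-band and its Z-disc, with 3 genes of assembly and splicing, are described here. They were chosen by name, as the rows of the deposited expression table whose gene symbol equals a listed member, and all 35 were found among 31920 gene rows. Polyadenylated RNA of the cardiac left ventricle was sequenced from 1 male 129-SvEv mouse labelled Lamp2 knockout and from 1 wildtype male of that strain, both aged 10 weeks. Lamp2 encodes a membrane protein of lysosomes that autophagy needs, and the series title names LAMP2 cardiomyopathy with impaired autophagy. The labels do not say which part of Lamp2 the allele removes. Each genotype has 1 library, so differences between the genotypes could not be tested and no p-values are given. Each 95% interval covers counting error only, and without molecular identifiers even that is a lower limit, as reads from PCR copies are not separate molecules.

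In the sarcomere, myosin heads of the thick filament pull on actin of the thin filament, and calcium binding to troponin moves tropomyosin aside to let them do so. Titin spans from the Z-disc, where thin filaments are anchored by α-actinin, to the M-band, where thick filaments are crosslinked by myomesins. Heart muscle swaps isoforms of these proteins during development, and in rodents skeletal actin (Acta1) and β-myosin (Myh7) are known as fetal isoforms that can return in the stressed ventricle.

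Reads assigned to genes numbered 8773820 for the knockout-labelled and 8410593 for the wildtype heart. Levels are reads per 1000000 reads assigned to genes (RPM), as the authors deposited them. A floor was set at 3 reads, which correspond to 0.342 RPM in the knockout-labelled and 0.357 RPM in the wildtype library. Lamp2 had 986 reads in the knockout-labelled library and 990 in the wildtype, so a count over the whole gene does not check the genotype label. The mitochondrial genome's rows accounted for 16.2% of knockout-labelled and 26.5% of wildtype reads, and the RPM of every other gene moves with that share. The deposited scale is therefore given beside 3 rescalings, by the median ratio of genes, by a trimmed mean of log ratios and by the total without mitochondrial rows and the 10 most abundant genes, which lower all log2 ratios by 0.11, 0.12 and 0.18. Of 4 housekeeping genes with processed copies elsewhere in the genome, 2 were nearly empty. Actg1, cytoplasmic γ-actin, had 8 reads in the knockout-labelled library and 3 in the wildtype, and Capza1, an actin capping subunit, had 4 and 6. Gapdh, a glycolytic enzyme, had 1578 reads in the knockout-labelled library and 647 in the wildtype, and Actb, cytoplasmic β-actin, 4758 and 4324. Of the windows of 50 bases in their annotated transcripts, 56.7% in Actg1, 77.4% in Capza1, 82.5% in Gapdh and 14.2% in Actb also occur in transcripts of other genes.

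As a whole, the 35 genes took nearly the same share of reads in both libraries. They held 8.05% (exact binomial interval 8.03 to 8.07) of reads in the knockout-labelled library and 8.22% (8.20 to 8.24) in the wildtype. Of reads outside the mitochondrial genome, they held 9.61% (9.59 to 9.63) in the knockout-labelled library and 11.2% (11.2 to 11.2) in the wildtype. A gene counted as measured if the higher library had at least 5 RPM, which 31 of the 35 genes reached. Myl4, Myl7, Mybphl and Tnni1 did not. The median log2 ratio of the 31 genes, knockout-labelled over wildtype with 1 RPM added to both, was −0.03, against 0.11 over all 10209 measured genes.

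By that log2 ratio, 2 of the 31 measured genes, Acta1 and Synpo2l, were higher by 2-fold or more, and 3.35% of all measured genes were. None of the 31 was lower by 2-fold or more, and 2.37% of all measured genes were. Under the rescalings these backgrounds were 2.17% to 2.50% higher and 3.00% to 3.50% lower. At 1.5-fold, 3 genes were higher (Synpo2l, Acta1 and Pdlim5) against a background of 12.8%, and 4 were lower (Myh7b, Tpm2, Smyd1 and Nebl) against a background of 7.3%. The other 24 genes, 77.4% of those measured, lay within 1.5-fold, as did 79.9% of all measured genes. The ratio of RPM was within 10% of equality for 16 of the 31, or 51.6%, where 24.7% of all measured genes were that close on the deposited scale. That contrast depends on the scale: under the rescalings by the median ratio, the trimmed mean and the total, 11, 10 and 6 of the 31 were within 10%, or 35.5%, 32.3% and 19.4%, against 25.5%, 25.6% and 25.5% of all measured genes. For 26 of the 31, the ratio's counting interval did not reach 1, against 51.7% of all measured genes, and these genes hold far more reads than most.

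**Figure D1:**
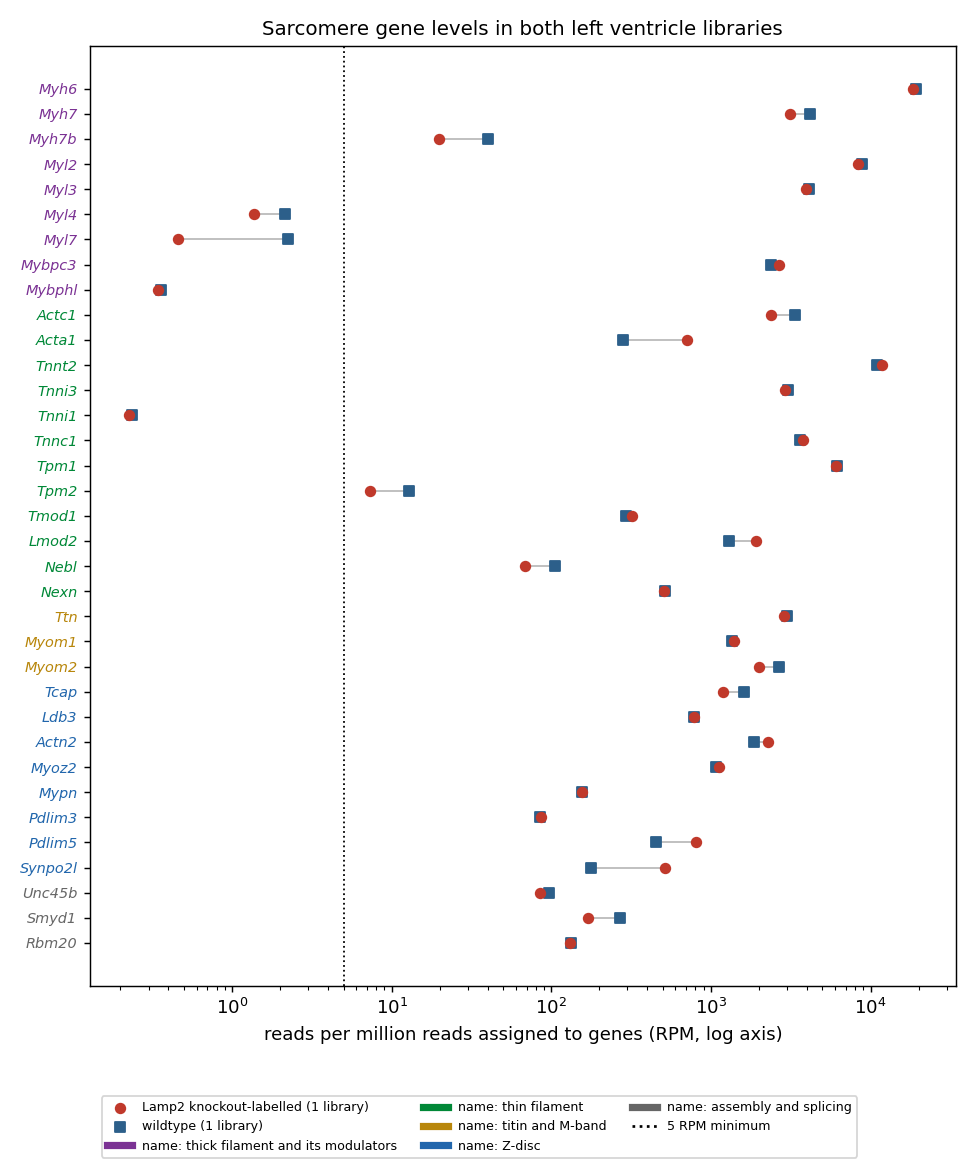
Level of each of the 35 genes in the knockout-labelled library (red circles) and the wildtype library (blue squares), in RPM on a log axis, 1 library per point, with names coloured by position in the sarcomere and a dotted line at the 5 RPM minimum. Most pairs of points touch, while Acta1 (709 against 281 RPM) and Synpo2l (519 against 177 RPM) lie apart with the knockout-labelled library higher, and 4 genes lie left of the line.

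The thick filament is built on myosin heavy chains, and the 2 main ones are neighbours on the minus strand of chromosome 14 in the mm10 build. Myh6, the fast α-myosin that dominates in adult mouse ventricle (54941921 to 54966607), was at 18405 RPM in the knockout-labelled library and 19313 RPM in the wildtype. Its ratio was 0.953 (0.946 to 0.960), close to equality on the deposited scale and 0.839 to 0.883 under the rescalings. Myh7, the slower β-myosin (54970688 to 54994549), was at 3148 RPM in the knockout-labelled library and 4164 RPM in the wildtype. Its ratio was 0.756 (0.744 to 0.768), lower in the knockout-labelled library and lower still under the rescalings, at 0.666 to 0.700. Myh7b, a related slow myosin gene on chromosome 2 (155611212 to 155634307), was at 19.7 RPM in the knockout-labelled library and 40.1 RPM in the wildtype. Its ratio of 0.492 (0.407 to 0.593) was the lowest among measured members, though with 1 RPM added its log2 ratio of −0.99 fell just short of the 2-fold rule. The end of the Myh7b row overlaps Trpc4ap on the opposite strand. Trpc4ap had 1193 reads in the knockout-labelled library and 838 in the wildtype, against 173 and 337 for Myh7b.

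As a share of Myh6 and Myh7 reads together, which does not depend on the scaling between libraries, Myh7 made up 14.6% (14.4 to 14.8) in the knockout-labelled library and 17.7% (17.6 to 17.9) in the wildtype. The within-pair ratio in the knockout-labelled library was 0.793 times that in the wildtype (log-scale interval 0.780 to 0.807), so the fetal isoform took the smaller share there. Per kb of transcript, Myh6 stood 5.96 times above Myh7 in the knockout-labelled library and 4.73 times in the wildtype. The split of reads between these genes has limits. Of the 50-base windows of the longest coding transcript, 22.6% in Myh6 and 28.2% in Myh7 occur in another gene's transcripts, and 1373 windows are shared between the pair. The opposite-strand noncoding row D830015G02Rik overlaps Myh7, with 2343 reads in the knockout-labelled library and 2429 in the wildtype. Its ratio was 0.925 (0.873 to 0.979). Whether reads were assigned by strand is not stated, so reads of Myh7 and of this row cannot be told apart.

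Each of the 3 myosin heavy chain rows contains a microRNA row on its own strand, and these myosin-hosted microRNAs are known in mice to act on the balance of slow and fast muscle genes. Their mature sequences from RefSeq (GRCm38.p6) are shown because they tie the 3 host genes together, with the seed, bases 2 to 8, in capitals.
mmu-miR-208a-3p, within Myh6 (chr14:54949072-54949093, minus strand): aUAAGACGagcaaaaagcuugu
mmu-miR-208b-3p, within Myh7 (chr14:54975710-54975731, minus strand): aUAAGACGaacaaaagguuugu
mmu-miR-499-5p, within Myh7b (chr2:155622893-155622913, plus strand): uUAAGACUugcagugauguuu
The seeds of miR-208a-3p and miR-208b-3p are identical, and each shares 6 of 7 seed bases with miR-499-5p. Over their 22 bases, the miR-208 pair is equal at 19 positions. The microRNA rows held 0 reads in the knockout-labelled library and 0 in the wildtype for Mir208a, 2 and 3 for Mir208b, and 0 and 1 for Mir499, all at or under 3 reads. Polyadenylated RNA is not a measure of mature microRNAs, so their levels are not given by these data.

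The ventricular myosin light chains followed Myh6 closely. Myl2, the regulatory light chain of the ventricle, was at 8322 RPM in the knockout-labelled library and 8818 RPM in the wildtype, a ratio of 0.944 (0.934 to 0.953). Myl3, the essential light chain, was at 3944 RPM in the knockout-labelled library and 4143 RPM in the wildtype, a ratio of 0.952 (0.938 to 0.966). Both were a little lower in the knockout-labelled library on the deposited scale, and the rescalings lower every ratio further.

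The atrial light chains were close to absent. Myl7, the atrial regulatory light chain, had 4 reads in the knockout-labelled library and 19 in the wildtype, or 0.456 and 2.26 RPM. That made 0.00548% (0.00149 to 0.0140) of Myl7 and Myl2 reads together in the knockout-labelled library and 0.0256% (0.0154 to 0.0400) in the wildtype, a within-pair ratio 0.214 times as high (0.0727 to 0.629), or 0.473 with 1 RPM added to both genes. Myl4, the essential light chain of atrium and fetal heart, had 12 and 18 reads in the knockout-labelled and wildtype libraries, a ratio of 0.639 (0.281 to 1.40) that did not differ from 1 beyond counting error. The row AK139889 overlaps Myl4 on the opposite strand, with 12 and 23 reads in the knockout-labelled and wildtype libraries. Among atrial markers outside the sarcomere, 7 of 12 were measured. At 1.5-fold, 3 were higher and 1 was lower, against 12.8% and 7.3% of all measured genes. At 2-fold, 2 were higher and 1 was lower, against 3.35% and 2.37%. The atrial growth factor gene Bmp10 had 0 reads in both libraries, and Sln, atrial sarcolipin, had 1 read in the knockout-labelled library and 5 in the wildtype. Stard10, a lipid transfer protein gene, had 215 and 127 reads, Dkk3, a secreted Dickkopf protein gene, 80 and 25, and Kcnj3, an atrial potassium channel gene, 78 and 173 in the knockout-labelled and wildtype libraries. All 12 markers summed to 11168 RPM in the knockout-labelled library and 3071 RPM in the wildtype, nearly all of it Nppa, the natriuretic peptide that stressed ventricles also express. Without Nppa, 11 of them summed to 181 RPM in the knockout-labelled library and 202 RPM in the wildtype.

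Myosin binding proteins completed the thick filament. Mybpc3, cardiac myosin binding protein C, which tunes the interaction of myosin with actin, was at 2660 RPM in the knockout-labelled library and 2381 RPM in the wildtype. Its ratio was 1.12 (1.10 to 1.14) on the deposited scale, 1.03 under 2 rescalings and 0.983 when scaled to the total without mitochondrial rows and the 10 most abundant genes, so its direction depends on the scale. Mybphl, a smaller relative found mainly in the atrium, had 3 reads in each library, and no ratio is given. Of the 6 measured thick filament genes, 1 had a positive log2 ratio, where 61.2% of all measured genes did, and their median was −0.08.

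In the thin filament, the balance of the 2 striated actin isoforms differed between the libraries. Acta1, the α-actin named for skeletal muscle (chromosome 8, 123891767 to 123894736), was at 709 RPM in the knockout-labelled library and 281 RPM in the wildtype. Its reads numbered 6224 and 2365 in the knockout-labelled and wildtype libraries, and the ratio was 2.52 (2.41 to 2.65), above 2 under each rescaling at 2.22 to 2.34. Actc1, the cardiac α-actin (chromosome 2, 114047289 to 114052811), was at 2383 RPM in the knockout-labelled library and 3353 RPM in the wildtype, a ratio of 0.711 (0.698 to 0.724). The pair thus differed in opposite directions, with Actc1 at 0.626 to 0.658 under the rescalings.

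Acta1 made up 22.9% (22.4 to 23.4) of Acta1 and Actc1 reads in the knockout-labelled library and 7.74% (7.44 to 8.04) in the wildtype. The within-pair ratio was 3.55 times as high in the knockout-labelled library (3.37 to 3.73), the highest of the 9 within-pair ratios that could be given for 11 pairs. Per kb of transcript, Actc1 remained the more abundant actin, 3.30 times above Acta1 in the knockout-labelled library and 11.7 times in the wildtype. The sum of both actins was 3093 RPM in the knockout-labelled library and 3634 RPM in the wildtype, a ratio of 0.851 (0.837 to 0.865). Acta1 was thus higher by fewer RPM than Actc1 was lower. Reads of this pair are well separated: Actc1 shares 0 of its 1424 windows of 50 bases with another gene, and Acta1 shares 2.22%, most of them with a pseudogene and with Actb. Actb stood at 542 RPM in the knockout-labelled library and 514 RPM in the wildtype. The noncoding row C130080G10Rik runs across Actc1 on the opposite strand, at 32.1 RPM in the knockout-labelled library and 75.4 RPM in the wildtype.

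Muscle genes are often driven through the CArG box, the site bound by serum response factor, and both actin promoters hold one. The 150 bases before the RefSeq start (GRCm38.p6) are shown for the pair because its members differ in direction while sharing this element, with the CArG box in capitals.
Acta1 (chr8:123894776-123894925, minus strand): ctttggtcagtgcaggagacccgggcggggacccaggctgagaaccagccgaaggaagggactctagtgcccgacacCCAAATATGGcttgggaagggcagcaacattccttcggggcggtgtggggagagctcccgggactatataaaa
Actc1 (chr2:114052876-114053025, minus strand): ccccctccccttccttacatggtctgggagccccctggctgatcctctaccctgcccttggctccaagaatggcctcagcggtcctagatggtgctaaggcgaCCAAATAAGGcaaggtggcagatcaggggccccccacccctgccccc
RefSeq promoter windows of 300 bases were available for 31 of the 35 genes, 41 windows in all, since some genes have several starts. A CArG box, searched by its usual pattern, which is the same on both strands, occurred in 8 of the 41 windows (19.5%) and in 1.63% of all 32851 windows. The genes were Acta1, Actc1, Ldb3, Myl3, Myl7, Myom1 and Nebl, whose ratios range from the highest but for Synpo2l to among the lowest. The sequence CATTCC on either strand, known as the M-CAT element, occurred in 13 of the 41 windows (31.7%) and in 14.7% of all windows, Acta1 included. The pattern of the MEF2 box occurred in 5 windows (12.2%) against 3.19% of all, and TATAAA on the coding strand in 3 windows (7.32%) against 8.32%. TATAAA lay at −7 to −2 from the RefSeq start in Acta1 and at 33 to 38 in Actc1, beyond the stretch shown. The 2 stretches are thus not aligned on this element. Both Myl2 windows end by 122093238, before the Myl2 row begins at 122100980, so the shares rest on RefSeq starts that can lie away from the deposited rows. These are matches of letters in short windows and not evidence of binding, and no match says only that these letters are not in the window.

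**Figure D2:**
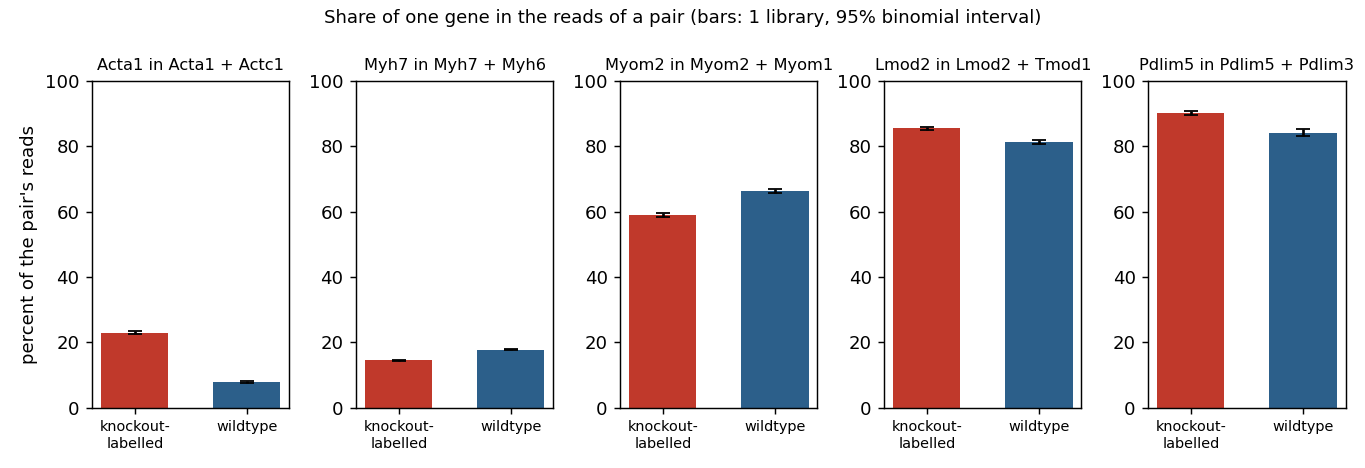
Share of 1 gene in the reads of 5 pairs, in percent, for the knockout-labelled library (red, left) and the wildtype library (blue, right), with bars for 1 library each and exact 95% binomial intervals. Acta1 takes 22.9% against 7.74% of its pair, Myh7 and Myom2 take less in the knockout-labelled library, and Lmod2 and Pdlim5 take more.

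The 3 subunits of cardiac troponin were close to equality on the deposited scale. Tnnt2, which ties troponin to tropomyosin, was at 11743 RPM in the knockout-labelled library and 10910 RPM in the wildtype, a ratio of 1.08 (1.07 to 1.09) that turned to 0.948 to 0.997 under the rescalings. Tnnc1, the calcium-binding subunit, was at 3798 RPM in the knockout-labelled library and 3600 RPM in the wildtype, a ratio of 1.06 (1.04 to 1.07), or 0.929 to 0.977 under the rescalings. Tnni3, the inhibitory subunit, was at 2912 RPM in the knockout-labelled library and 3061 RPM in the wildtype. Its ratio was 0.951 (0.935 to 0.968), or 0.838 to 0.881 under the rescalings. Tnni1, the slow skeletal form that the fetal heart uses, had 2 reads in each library. It made up 0.00783% (0.000948 to 0.0283) of troponin I reads in the knockout-labelled library and 0.00777% (0.000941 to 0.0281) in the wildtype, so fetal troponin I was at the limit of detection in both.

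The tropomyosins lie along actin and cover its myosin sites. Tpm1, the main form in the heart, was at 6060 RPM in the knockout-labelled library and 6168 RPM in the wildtype, a ratio of 0.982 (0.971 to 0.994). Tpm2, the β form of slow skeletal and smooth muscle, was at 7.29 RPM in the knockout-labelled library and 12.8 RPM in the wildtype, from 64 and 108 reads. Its ratio was 0.568 (0.410 to 0.781), and its share of the pair was 0.120% (0.0926 to 0.153) in the knockout-labelled library and 0.208% (0.170 to 0.251) in the wildtype. All 10 measured smooth muscle and pericyte markers also had log2 ratios below 0, where 61.2% of all measured genes were above 0. Their median was −0.42, and the list summed to 986 RPM in the knockout-labelled library and 1099 RPM in the wildtype. Myl9, a smooth muscle light chain, and Tagln, an actin-binding protein of smooth muscle, had ratios of 0.585 and 0.597. The part of smooth muscle content in the Tpm2 result was not tested, and fewer cells of a type and less RNA per cell cannot be told apart in bulk tissue.

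Thin filament length is set at the pointed end, where tropomodulin caps and leiomodin elongates. Lmod2, the cardiac leiomodin (chromosome 6, 24597771 to 24605414), was at 1908 RPM in the knockout-labelled library and 1295 RPM in the wildtype. Its ratio was 1.47 (1.44 to 1.51), or 1.30 to 1.36 under the rescalings, higher in the knockout-labelled library on all 4 scales and just under 1.5-fold. Tmod1, the tropomodulin of the heart, was at 322 RPM in the knockout-labelled library and 295 RPM in the wildtype, a ratio of 1.09 (1.03 to 1.15) that was 0.961 to 1.01 under the rescalings. Of the windows of Tmod1, 39.8% occur in other genes, all of them also in the overlapping Tstd2. Lmod2 took 85.5% (85.0 to 86.0) of the reads of the pair in the knockout-labelled library and 81.4% (80.8 to 82.1) in the wildtype, a within-pair ratio 1.35 times as high (1.27 to 1.43). Lmod3, a leiomodin known mainly from skeletal muscle and not among the 35 genes, differed the other way at 29.1 RPM in the knockout-labelled library and 62.5 RPM in the wildtype.

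Nebulette and nexilin bind actin near the Z-disc. Nebl, nebulette, was at 68.7 RPM in the knockout-labelled library and 106 RPM in the wildtype, a ratio of 0.649 (0.584 to 0.720) and of 0.750 after a correction for transcript length and GC content, which ended its 1.5-fold call. The row AK163016 lies within Nebl on the same strand, with 68 reads in the knockout-labelled library and 108 in the wildtype, a ratio of 0.604. Neb, the giant skeletal nebulin and again outside the 35 genes, was at 2.17 RPM in the knockout-labelled library and 12.2 RPM in the wildtype. Nexn, nexilin, was at 505 RPM in the knockout-labelled library and 519 RPM in the wildtype. On the deposited scale its ratio was 0.973 (0.933 to 1.01), with 1 inside the counting interval. Under the rescalings the ratio of Nexn was 0.857 to 0.901, with each interval wholly below 1. After the length and GC correction it was 1.05. Of the 11 measured thin filament genes, 5 had a positive log2 ratio, where 61.2% of all measured genes did, and their median was −0.03.

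Titin and the M-band came next. Ttn, the molecular spring that runs from Z-disc to M-band, was at 2871 RPM in the knockout-labelled library and 3017 RPM in the wildtype, a ratio of 0.952 (0.935 to 0.969). Under the rescalings the ratio of Ttn was 0.838 to 0.882, with each interval wholly below 1. Its transcript is by far the longest of the 35, and the correction for length and GC content turned its ratio to 1.14. Rbm20, the splicing factor that selects titin exons, was at 132 RPM in the knockout-labelled library and 133 RPM in the wildtype. Its ratio was 0.994 (0.915 to 1.08), or 0.875 to 0.920 under the rescalings. The rows are whole genes, so titin isoforms are not resolved.

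Of the myomesins, Myom2 was lower in the knockout-labelled library, while the direction of Myom1 depended on the scale. Myom2, known as M-protein (chromosome 8, 15057653 to 15133419), was at 2006 RPM in the knockout-labelled library and 2657 RPM in the wildtype, a ratio of 0.755 (0.740 to 0.770). Myom1, myomesin 1, was at 1390 RPM in the knockout-labelled library and 1349 RPM in the wildtype, a ratio of 1.03 (1.004 to 1.06), or 0.907 to 0.954 under the rescalings. Myom2 made up 59.1% (58.5 to 59.6) of the reads of the pair in the knockout-labelled library and 66.3% (65.8 to 66.8) in the wildtype, a within-pair ratio 0.733 times as high (0.710 to 0.757). Neither gene shares a 50-base window with another gene.

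The Z-disc held the member with the highest ratio. Synpo2l, an actin-binding protein of the Z-disc also called CHAP (chromosome 14, 20659418 to 20668306), was at 519 RPM in the knockout-labelled library and 177 RPM in the wildtype. Its reads numbered 4556 and 1489 in the knockout-labelled and wildtype libraries, and the ratio was 2.93 (2.77 to 3.11), or 2.58 to 2.72 under the rescalings. No window of its transcript is shared and no other row overlaps it, and its log2 ratio lay above that of 99.1% of measured genes.

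Among the PDZ and LIM domain proteins that dock on α-actinin, Pdlim5, also called ENH, stood apart from its relatives. Pdlim5 (chromosome 3, 142239585 to 142395696) was at 802 RPM in the knockout-labelled library and 451 RPM in the wildtype, a ratio of 1.78 (1.71 to 1.85) that was 1.56 to 1.65 under the rescalings. Pdlim3, also called ALP, was at 86.8 RPM in the knockout-labelled library and 84.8 RPM in the wildtype, a ratio of 1.02 (0.924 to 1.14). Ldb3, also called ZASP or Cypher, was at 787 RPM in the knockout-labelled library and 782 RPM in the wildtype, a ratio of 1.01 (0.973 to 1.04). Pdlim5 took 90.2% (89.6 to 90.9) of Pdlim5 and Pdlim3 reads in the knockout-labelled library and 84.2% (83.1 to 85.2) in the wildtype, a within-pair ratio 1.73 times as high (1.55 to 1.94).

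Actn2, the α-actinin that crosslinks thin filaments in the Z-disc, was at 2293 RPM in the knockout-labelled library and 1866 RPM in the wildtype, a ratio of 1.23 (1.20 to 1.25) that was above 1 on all 4 scales, at 1.08 to 1.14 under the rescalings. Tcap, telethonin, which caps the titin ends in the Z-disc, was at 1196 RPM in the knockout-labelled library and 1606 RPM in the wildtype, a ratio of 0.745 (0.726 to 0.764). The ratio of Tcap was thus below that of titin. Myoz2, calsarcin, which binds α-actinin and calcineurin, was at 1118 RPM in the knockout-labelled library and 1078 RPM in the wildtype. Mypn, myopalladin, was at 155 RPM in the knockout-labelled library and 156 RPM in the wildtype. Myoz2 and Mypn lay near equality on the deposited scale, with ratios of 1.04 (1.01 to 1.07) and 0.996 (0.922 to 1.08). Of the 8 Z-disc genes, 6 had a log2 ratio above 0 on the deposited scale (3 under every rescaling) and 2 were at least 1.5-fold higher. Of all measured genes, 61.2% were above 0 on the deposited scale, 44.0% to 50.6% under the rescalings, and 12.8% were at least 1.5-fold higher. The Z-disc median was 0.04, against 0.11 over all measured genes, and 3 of the 8 lay above the latter.

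The assembly factors were lower or level. Smyd1, a muscle methyltransferase needed for sarcomere assembly (chromosome 6, 71213940 to 71322233), was at 169 RPM in the knockout-labelled library and 268 RPM in the wildtype, a ratio of 0.630 (0.590 to 0.673). Unc45b, the myosin chaperone, was at 85.5 RPM in the knockout-labelled library and 97.0 RPM in the wildtype, a ratio of 0.881 (0.797 to 0.974). Both were lower in the knockout-labelled library on the deposited scale and after the length and GC correction, at 0.642 for Smyd1 and 0.874 for Unc45b. Opposite-strand rows overlap both: Krcc1 lies across Smyd1 at a ratio of 1.25, the other way from Smyd1, and 1700003F17Rik, with 23 reads in the knockout-labelled library and 41 in the wildtype, overlaps Unc45b.

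**Figure D3:**
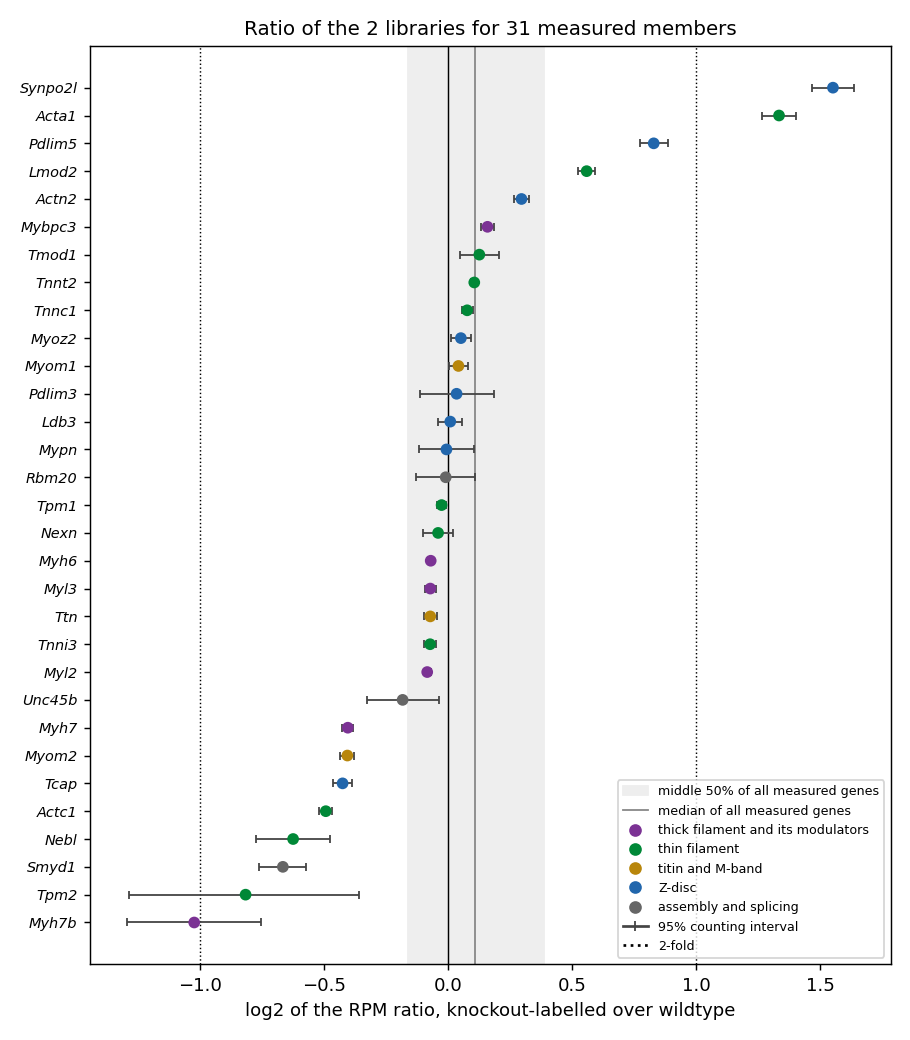
Log2 of the RPM ratio, knockout-labelled over wildtype, for the 31 measured genes, with 95% counting intervals and colours by position in the sarcomere. The grey band and line give the middle 50% (−0.16 to 0.39) and the median (0.11) of all measured genes with 1 RPM added, and dotted lines mark 2-fold: Synpo2l and Acta1 lie beyond the right one and most others near 0.

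The members at least 1.5-fold apart on the deposited scale were among the less abundant. All 17 genes with at least 1000 RPM in the wildtype lay within 1.5-fold, against 7 of the 14 measured genes under 1000 RPM. The 17 became 16 under the median ratio and the trimmed mean, where Actc1 passed 1.5-fold, and 13 under the total, where Myh7, Myom2 and Tcap did so as well. After the length and GC correction, Tcap passed 1.5-fold. Over all measured genes on the deposited scale, 78.6% of the 98 with at least 1000 RPM and 79.9% of the 10111 under it lay within 1.5-fold. The bound of 1000 RPM was chosen after the values were seen. Across the 31 genes, Spearman's rho of the log2 ratio was −0.15 with transcript length and 0.06 with the wildtype RPM, given as a description over genes of 2 shared libraries.

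Summed by protein family, the main contractile proteins had ratios between 0.848 and 1.05 on the deposited scale. Myosin heavy chains (Myh6, Myh7 and Myh7b) summed to 21573 RPM in the knockout-labelled library and 23517 RPM in the wildtype, a ratio of 0.917 (0.912 to 0.923). The ventricular light chains Myl2 and Myl3 had a ratio of 0.946 (0.938 to 0.954), and the tropomyosins 0.982 (0.970 to 0.994). The 3 cardiac troponin subunits together had a ratio of 1.05 (1.04 to 1.06), which turned to 0.925 to 0.973 under the rescalings. The actins at 0.851 and the myomesins at 0.848 had the lowest family ratios. Apart from troponin, these families were lower in the knockout-labelled library on the deposited scale, and the rescalings lower every ratio further.

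Scale decided the direction for the genes near equality. Of the 13 genes with a ratio above 1 on the deposited scale, 5 stayed above 1 under every rescaling: Synpo2l, Acta1, Pdlim5, Lmod2 and Actn2. The other 8 (Mybpc3, Tmod1, Tnnt2, Tnnc1, Myoz2, Myom1, Pdlim3 and Ldb3) were below 1 under at least 1 rescaling. The rescalings lower every ratio, so the 18 genes below 1 could not turn under them. After the length and GC correction, 3 of the 18 were above 1, with Ttn at 1.14, Nexn at 1.05 and Mypn at 1.01. That correction stays on the deposited scale, with a median log2 ratio of 0.12 over the genes fitted, and was not combined with a rescaling.

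**Figure D4:**
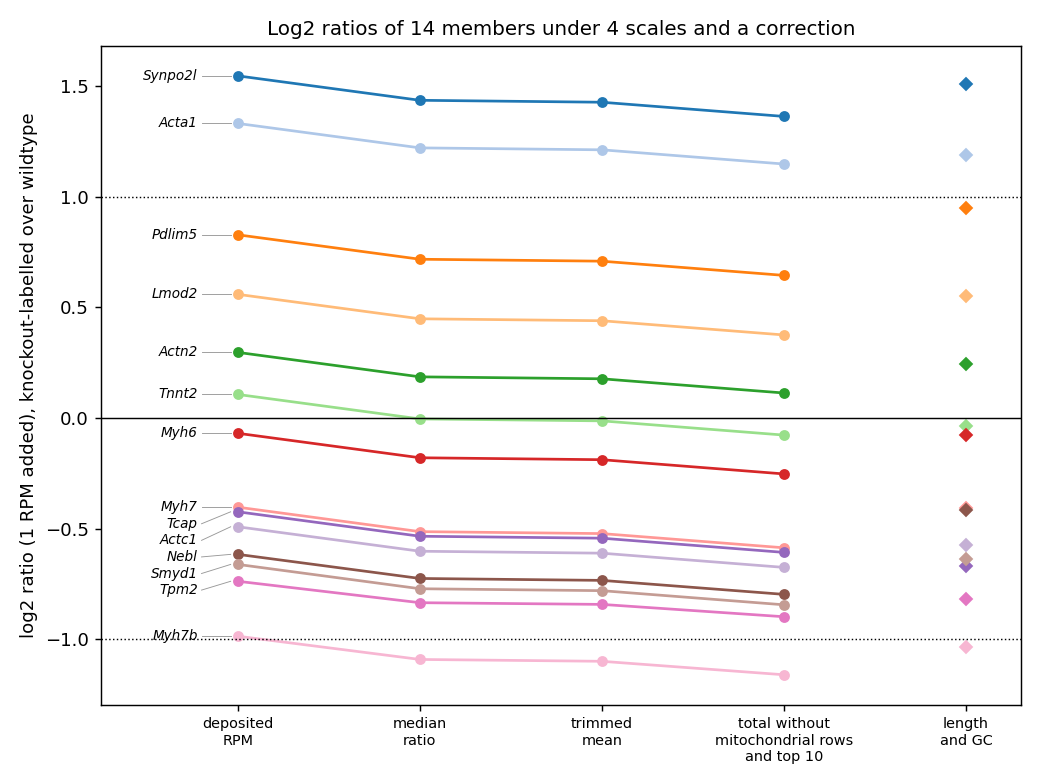
Log2 ratio with 1 RPM added, knockout-labelled over wildtype, of 14 members on the deposited scale, under 3 rescalings (circles joined by lines) and after the correction for transcript length and GC content (diamonds). Each rescaling shifts all genes by nearly the same amount, Synpo2l and Acta1 stay above the dotted line at 2-fold, Tnnt2 crosses 0, and Myh7b lies near the lower dotted line.

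Beyond the 35 genes, 63 of 64 other sarcomere and muscle cytoskeleton genes were listed and 49 were measured. Of these, 3 were at least 2-fold higher (6.12%, against 3.35% of all measured genes) and 2 at least 2-fold lower (4.08%, against 2.37%), and the median log2 ratio was 0.10, which turned to between −0.08 and −0.01 under the rescalings. The highest were the titin-associated stress protein Ankrd1 at a ratio of 2.84 (2.80 to 2.88), the small heat shock protein Hspb1 at 2.53 (2.31 to 2.78), the actin-binding protein Xirp1 at 2.13 (2.05 to 2.21) and the muscle LIM protein gene Csrp3 at 1.85 (1.82 to 1.89). The lowest were Neb at 0.177 (0.102 to 0.290), Lmod3 at 0.465 (0.399 to 0.541), Tmod4, a skeletal tropomodulin, at 0.572 (0.431 to 0.757) and Myl9. Both directions thus occurred in this list, as they did among the members.

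Markers of the cell types in the tissue were read as levels of RNA. All 12 genes of a cardiomyocyte marker list were measured, with a median log2 ratio of 0.14 (−0.04 under the rescaling to the total). On the deposited scale 7 of them were above 0 and 5 below, where 61.2% of all measured genes were above 0. They summed to 34675 RPM in the knockout-labelled library and 31963 RPM in the wildtype. Csrp3, also in the list of other sarcomere genes above, was among the 12, so the list is not wholly separate from the sarcomere. Csrp3 was at 3131 RPM in the knockout-labelled library and 1689 RPM in the wildtype. The 5 measured ventricular markers had a median of −0.16, with 1 above 0, where 61.2% of all measured genes were. Pln, which restrains the calcium pump and is in both the ventricular and the cardiomyocyte list, had a ratio of 0.595. The 13 fast skeletal muscle markers summed to 3633 RPM in the knockout-labelled library and 2721 RPM in the wildtype, mostly from Ckm, which the heart also expresses and which had a ratio of 1.35. Without Ckm, the other 12 summed to 81.6 RPM in the knockout-labelled library and 81.8 RPM in the wildtype. Mylpf, the fast skeletal light chain, had 8 reads and 0 reads in the knockout-labelled and wildtype libraries, and Tnnc2, fast troponin C, 1 and 0. Fibroblast markers had a median of −0.46 over 9 genes, endothelial markers −0.13 over 8 and macrophage markers 0.79 over 8, the last with sums of 366 RPM in the knockout-labelled library and 194 RPM in the wildtype. Their part in the sarcomere results was not tested.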

How the data were processed

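The authors deposited 1 table with a raw read count and an RPM value per gene symbol for each library, per the file headers. The deposited RPM equals the count over the library's total, times 1000000, to within 5e-05. The submitters' processing notes name STAR, mm10 and GRCm38. The counting tool, the annotation release, the use of strand and the treatment of reads matching several places were not given in sources used here. Deposited starts count from 0 and are given plus 1: 435 of 438 microRNA rows with the RefSeq end then match the RefSeq start.

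Groups were taken from the genotype labels. With 1 library per group no test of genotypes was made. A gene was measured at 5 RPM or more in the higher library and called at a log2 ratio, with a pseudocount of 1 RPM, of at least 2-fold (or 1.5-fold) in size. Ratios in the text carry no pseudocount and have exact conditional binomial intervals, shares have exact Clopper-Pearson intervals, and within-pair ratios have Woolf intervals. Lengths, GC content and 50-base windows are those of the longest coding transcript in GENCODE M21. The rescalings took the median ratio, a trimmed mean (30% of log ratios and 5% of levels dropped on either side) or a total that leaves out mitochondrial rows and the 10 most abundant genes. The length and GC correction is a quadratic fit over 8973 genes and keeps the median of the deposited scale. Members, lists and pairs were chosen with earlier results of these data known. All 35 members are named, with the 4 highest and 4 lowest measured genes of the other sarcomere list, up to 4 genes of a marker list and some of the rows that overlap a member. Actb, Actg1, Capza1, Gapdh and the defining markers near 0 were named after their values were seen. The rule was run on simulated counts with 200 genes set to differ and with counting error alone. That simulation left out spread between animals and cannot speak to it. Scripts ran in Python 3.11.15 with scipy 1.17.1, numpy 2.4.6 and pandas 2.3.3.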

Additional observations from a re-analysis of the deposited data

How the results depend on the processing

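The count of 2 members at least 2-fold higher and of 3 at least 1.5-fold higher held under all 9 alternatives. The count at least 2-fold lower was 0, and became 1 under 7: Myh7b with a pseudocount of 0.1 RPM, under the 3 rescalings and after the length and GC correction, and Myl7 with a minimum of 1 RPM or none. The count at least 1.5-fold lower was 4, beside 7.3% of all measured genes. It became 8, beside 12.1%, when scaled to the total without mitochondrial rows and the 10 most abundant genes, where Actc1, Myh7, Myom2 and Tcap joined. Actc1 also joined under the other rescalings (5 genes, beside 9.85% and 10.1%), and Tcap after the length and GC correction, where Nebl left. Tpm2 left with a pseudocount of 5 RPM or a minimum of 20 RPM (3 genes, beside 4.34% and 4.99%). Myl7 joined with a minimum of 1 RPM or none (5 genes, beside 9.78% and 8.19%). The median log2 ratio of −0.03 became −0.14 after division by the median ratio, −0.14 with the trimmed mean and −0.21 with that total. It was −0.0396 with a minimum of 1 RPM, −0.0172 with a minimum of 20 RPM and −0.0345 after the length and GC correction. With 1 RPM added to both genes, the within-pair ratio of Myl7 and Myl2 moved from 0.214 to 0.473, and all 9 stayed inside their intervals. No paired analysis was possible because each group has 1 library. The spread between animals is unknown, and ratios of genes near 5 RPM, such as Tpm2, rest on few reads.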
